A study of Mus musculus with 2 samples.

Results

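The genes described here are 8 genes of cholesterol synthesis and of the sterol-sensing SREBP system: Srebf2, Insig1, Hmgcs1, Idi1, Fdft1, Sqle, Cyp51 and Scd2. They were taken by symbol from the feature table, where each symbol matched 1 gene, and they are 8 of 31253 genes. Their RNA was counted in single thymocytes of the mouse, enriched with beads that bind CD25, the alpha chain of the interleukin-2 receptor. There were 2 libraries, 1 of each genotype. The cKO library came from mice labelled SETDBf/fCD4-Cre, in which Cre recombinase runs from the CD4 promoter and is therefore on from about the CD4 CD8 double-positive (DP) stage and in the T cells that follow it. The WT library came from wild-type mice. The label does not say which SETDB gene carried the floxed alleles, and neither the number of animals behind a library nor their age is given in the sources used here. SETDB1, the best known of them, is a histone H3 lysine 9 methyltransferase.

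Cells make cholesterol from acetyl-CoA through mevalonate. SREBP2, the product of Srebf2, is a membrane-bound transcription factor that is carried by SCAP out of the endoplasmic reticulum when sterols are low, is cut in the Golgi and then raises the genes of the pathway. INSIG proteins hold SCAP back when sterols are plentiful, and Insig1 is itself a target of SREBP. Dividing cells need sterol for new membrane. In the thymus, bursts of division alternate with rest: CD4 CD8 double-negative (DN) cells rest at the DN3 stage while the TCR beta chain is rearranged, divide on their way to the DP stage, and rest again as DP cells.

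With 1 library per genotype there was no test between genotypes and no p-value. A level is the sum of unique molecular identifiers (UMIs, 1 per captured molecule) of a gene over the cells of a group, per 1000000 UMIs of those cells, abbreviated CPM. The 3′ chemistry gives 1 tag per molecule, so levels do not scale with transcript length. Intervals are exact 95% intervals of the counts and cover counting error only, not variation between mice or libraries. After filtering, 7372 cKO cells (median 4653 UMIs) and 6989 WT cells (median 7700 UMIs) remained. The libraries shared 16 cell barcodes, 13 of them among the kept cells. Cells were put into groups, called gates below, by raw UMIs of marker genes, none of them among the 8. The 11 gates that held at least 50 cells in both libraries were early DN, transitional DN (Myl10-positive with little Ptcra), DN3, S phase without Cd8, G2/M without Cd8, cycling Cd8-positive, early resting DP, late resting DP, post-selection, mature conventional and Foxp3-positive with egress genes. Resting DP joins the early and late DP gates, resting DN joins DN3 and transitional DN, and Foxp3-positive joins cells with and without egress genes.

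Genes that no gate used went with most names. Hes1, a Notch target, stood at 630.4 CPM in cKO DN3 cells and 477.6 in WT DN3 cells, against 37.2 in cKO and 19.95 in WT resting DP cells. Kif11, a mitotic kinesin, stood at 166 and 153 CPM in cKO and WT cycling Cd8-positive cells, against 3.40 and 4.21 in the resting DP cells of the same libraries. The gates meant for B cells and for myeloid or stromal cells went against their names. In the first, 99.2% of cKO cells and 99.0% of WT cells held Cd79b, which 44.4% of cKO and 43.5% of WT DN3 cells also held, while Ms4a1 was found in 9.30% of cKO and 8.33% of WT cells. In the second, 93.9% of cKO and 94.2% of WT cells held Epcam, which 61.9% and 55.2% of DN3 cells also held. The cells of both gates enter no comparison between gates or genotypes below, but they count in totals over all kept cells. Results were also computed with those gates left out. Setdb1 and Setdb2 do not check the genotype, because a 3′ tag can lie outside a deleted exon. In Foxp3-positive cells Setdb1 stood at 25.8 CPM in cKO and 19.7 in WT, and in mature conventional cells at 17.1 in cKO and 27.4 in WT.

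The promoters of 5 of the genes were in RefSeq windows of mouse build GRCm38.p6, which run from 250 bases before to 50 bases from the gene start on. They are shown because SREBP2 acts with the factors NF-Y and Sp1 at such promoters, and because these genes are compared below as a group. The bases before the start are printed 5′ to 3′ on the gene's strand, and capitals mark the sterol regulatory element (SRE) and CCAAT boxes on either strand, a CCAAT box on the other strand being read as ATTGG. The bases printed are chr15:82147019-82147268 (plus strand) for Srebf2, chr5:28071162-28071411 (plus) for Insig1, chr13:119690101-119690350 (plus) for Hmgcs1, chr13:8885356-8885605 (plus) for Idi1 and chr5:4104698-4104947 (minus) for Cyp51.
Srebf2: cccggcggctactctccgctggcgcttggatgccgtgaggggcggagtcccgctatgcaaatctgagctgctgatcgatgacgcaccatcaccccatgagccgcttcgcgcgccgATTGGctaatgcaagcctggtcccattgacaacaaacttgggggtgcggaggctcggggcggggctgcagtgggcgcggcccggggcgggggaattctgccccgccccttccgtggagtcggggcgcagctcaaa
Insig1: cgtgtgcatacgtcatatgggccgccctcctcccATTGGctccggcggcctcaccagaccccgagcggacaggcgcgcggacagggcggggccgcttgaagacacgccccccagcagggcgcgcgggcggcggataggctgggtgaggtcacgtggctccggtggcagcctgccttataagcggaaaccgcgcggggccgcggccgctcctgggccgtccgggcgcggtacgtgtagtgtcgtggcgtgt
Hmgcs1: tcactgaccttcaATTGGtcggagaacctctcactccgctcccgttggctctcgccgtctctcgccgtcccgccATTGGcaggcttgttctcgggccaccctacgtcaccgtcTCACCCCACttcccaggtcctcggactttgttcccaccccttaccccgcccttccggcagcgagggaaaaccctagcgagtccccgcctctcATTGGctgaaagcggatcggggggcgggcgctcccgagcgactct
Idi1: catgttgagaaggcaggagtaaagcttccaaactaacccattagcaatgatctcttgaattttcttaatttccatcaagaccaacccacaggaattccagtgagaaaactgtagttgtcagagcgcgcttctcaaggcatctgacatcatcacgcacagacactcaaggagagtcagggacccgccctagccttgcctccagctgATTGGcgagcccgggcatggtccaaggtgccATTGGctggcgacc
Cyp51: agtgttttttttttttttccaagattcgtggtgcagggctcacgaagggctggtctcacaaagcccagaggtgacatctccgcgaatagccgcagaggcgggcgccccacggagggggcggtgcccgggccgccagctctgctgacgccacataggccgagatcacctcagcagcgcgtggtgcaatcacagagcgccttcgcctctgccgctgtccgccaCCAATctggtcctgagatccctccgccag

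The SRE was searched as TCACNCCAC, N being any base, on both strands of all 300 bases. It was found in 1 of the 5 windows, that of Hmgcs1, at -137 to -129 with the gene start as 0. It was found in 408 of all 32851 windows (1.24%). The CCAAT box was in 5 of 5 windows, against 37.4% of all windows, and Hmgcs1 held 4 of them, at -237, -176, -45 and 10. The GC box GGGCGG, a Sp1 motif, was also in 5 of 5 windows, against 35.7% of all. The E-box CACGTG was in the Insig1 window alone, at -101 to -96, against 7.15% of all windows. The motifs overlap with no other motif in these windows, as the map of matches shows. A match is a run of letters and not evidence of binding. Only the exact spelling was searched, so a window without a match is not shown to lack an SRE.

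**Figure D1:**
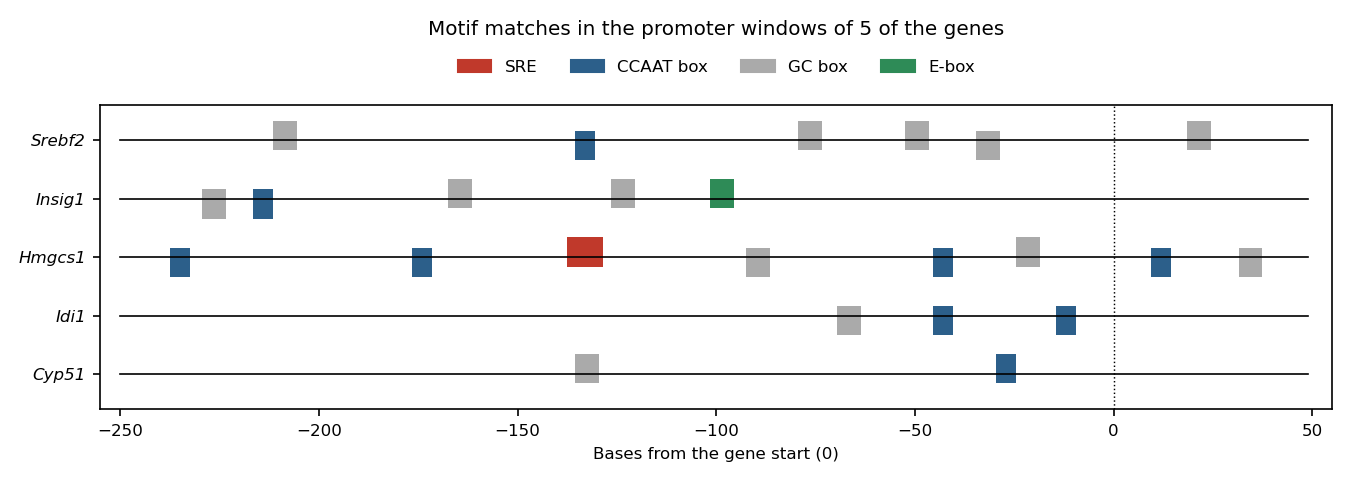
Motif matches in the RefSeq windows of 5 genes, by distance in bases from the gene start at 0; boxes shifted up are on the gene's strand and boxes shifted down on the other strand. All 5 windows hold a CCAAT box and a GC box, and the single SRE match is in Hmgcs1.

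The 5 enzymes Hmgcs1, Idi1, Fdft1, Sqle and Cyp51 shared a pattern over the gates: they were high in resting DN cells, highest in cycling cells, and low in resting DP cells. Their sum stayed near the resting DP level in mature conventional cells. Their summed level was 180 CPM in cKO and 162 in WT early DN cells, 213 in cKO and 236 in WT DN3 cells, 291 in cKO and 294 in WT S-phase cells, and 80.9 in cKO and 78.7 in WT resting DP cells. In mature conventional cells it was 86.3 in cKO and 89.1 in WT. Srebf2 and Scd2 were instead highest in DN3 or transitional DN cells, and Insig1 lay between 16.8 and 37.9 CPM over the DN, cycling and DP gates.

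**Figure D2:**
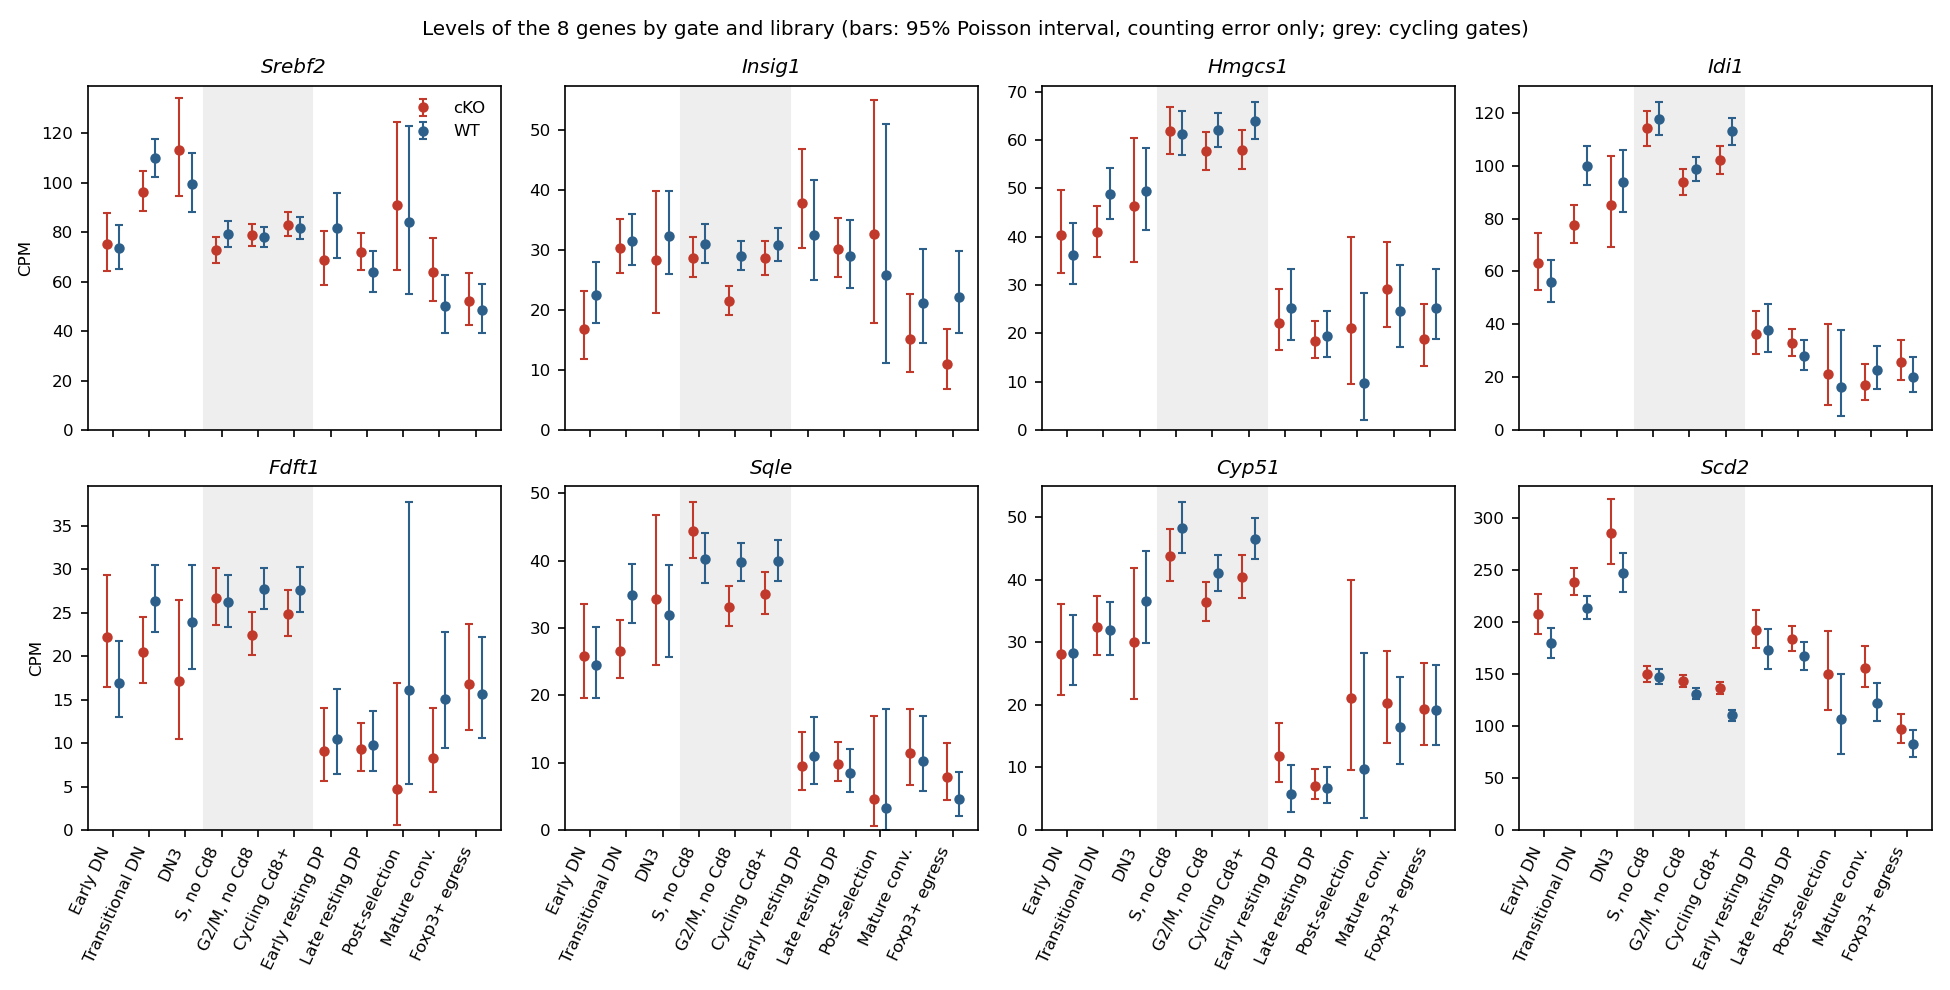
Levels of the 8 genes in CPM in the 11 gates, cKO left of WT, with 95% Poisson intervals of the counts; grey marks the 3 cycling gates. The 5 enzymes are high in the grey gates and drop at the resting DP gates, while Scd2 is lower in the grey gates than in the DN and DP gates on either side.

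Srebf2 encodes SREBP2, the transcription factor that drives the pathway. Its level was 75.3, 96.4 and 113 CPM in early DN, transitional DN and DN3 cells of the cKO library, and 73.6, 110 and 99.5 in the same gates of the WT library. It was 72.8 to 83.1 in the 3 cKO cycling gates and 78.1 to 81.6 in the 3 WT cycling gates. The levels of DN3 and transitional DN cells overlapped between libraries, and both lay above the other 9 of the 11 gates. The wide interval of post-selection cells overlapped with theirs, however, and that of WT early resting DP cells (69.6 to 95.9) with that of WT DN3 cells (88.1 to 112). Resting DP cells had 71.0 CPM in cKO and 70.1 in WT, and Foxp3-positive cells with egress genes had the lowest mean of the 11 gates, with 52.4 in cKO and 48.5 in WT, overlapping with mature conventional cells. Srebf2 in cycling Cd8-positive cells over resting DP cells was 1.170 (1.05 to 1.30) in cKO and 1.16 (1.04 to 1.31) in WT.

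Insig1 encodes the protein that retains SCAP in the endoplasmic reticulum. By the mean of the libraries it was highest in early resting DP cells, with 37.9 CPM in cKO and 32.6 in WT. WT DN3 cells had 32.3, and the intervals of the early resting DP and DN3 gates overlapped in both libraries. The transitional DN, DN3, S-phase, cycling Cd8-positive, late resting DP and post-selection gates held between 25.9 and 32.7 in either library, and neighbouring gates in this order overlapped. Foxp3-positive cells with egress genes stood lowest by the mean of the libraries, at 11.00 in cKO and 22.2 in WT, with mature conventional cells next, at 15.2 in cKO and 21.3 in WT. In G2/M cells without Cd8 it had 21.5 in cKO and 29.1 in WT, a ratio of 0.741 (0.643 to 0.851). The gene was not lower in DP than in DN cells as the enzymes were: resting DP over resting DN was 1.08 (0.897 to 1.31) in cKO and 0.9503 (0.782 to 1.15) in WT.

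Hmgcs1 makes HMG-CoA, the substrate from which mevalonate is formed. It stood at 61.9 CPM in cKO and 61.3 in WT S-phase cells, at 46.4 in cKO and 49.4 in WT DN3 cells, and at 19.6 in cKO and 21.4 in WT resting DP cells. The 3 cycling gates overlapped with one another and their levels lay above every DN gate in both libraries. The wide interval of cKO DN3 cells reached into them, however, and that of WT DN3 cells (41.4 to 58.4) into that of WT S-phase cells (56.9 to 66.1). Idi1 converts isopentenyl to dimethylallyl diphosphate, the start of chain building. Its S-phase level was 114 in cKO and 118 in WT, and by the mean of the libraries its order was S phase, cycling Cd8-positive, G2/M, then the resting DN gates, early DN, then early and late resting DP, and last the Foxp3-positive, mature and post-selection gates. It stood at 33.8 in cKO and 31.5 in WT resting DP cells and at 17.1 in cKO and 22.6 in WT mature conventional cells.

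Fdft1, or squalene synthase, joins a pair of farnesyl diphosphates in the first step committed to sterols. It had 26.7 CPM in cKO and 26.3 in WT S-phase cells, 17.2 in cKO and 24.0 in WT DN3 cells, and 9.24 in cKO and 10.1 in WT resting DP cells. The 3 cycling and the 3 DN gates formed 1 overlapping run. Sqle, squalene epoxidase, oxidises squalene and is a controlled step of the pathway. It had 44.4 in cKO and 40.3 in WT S-phase cells, 34.4 in cKO and 32.0 in WT DN3 cells, and 9.78 in cKO and 9.34 in WT resting DP cells. Cyp51, lanosterol 14-alpha-demethylase, acts on the first sterol ring product. It had 43.8 in cKO and 48.3 in WT S-phase cells, 30.1 in cKO and 36.7 in WT DN3 cells, and 8.56 in cKO and 6.41 in WT resting DP cells, where the mitotic gene Kif11 stood at 3.40 and 4.21. It was higher in mature conventional than in late resting DP cells, with 20.3 and 7.10 CPM in cKO, a ratio of 2.86 (1.72 to 4.73), and 16.5 and 6.74 CPM in WT, a ratio of 2.44 (1.33 to 4.49). It was the 1 member past 1.5-fold in both libraries in that comparison, where 10.8% of all genes were higher and 26.4% lower in both. How far free RNA sets the DP level of Cyp51 was not tested.

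Scd2 is a stearoyl-CoA desaturase, which makes monounsaturated fatty acids and is an SREBP target. It was the member with the most UMIs, 12041 in all kept cKO cells and 12659 in all kept WT cells. Its paralogs gave few: Scd1 had 58 and 47 UMIs in the same cells, and Scd1 was not used as a member. Of these Scd1 UMIs, 26 in cKO and 12 in WT came from the gate meant for B cells. Scd2 was highest in DN3 cells, at 286 CPM in cKO and 247 in WT, stood at 150 in cKO and 147 in WT S-phase cells, at 137 in cKO and 110 in WT cycling Cd8-positive cells, and at 187 in cKO and 169 in WT resting DP cells. The cycling gates lay below both the DN gates before them and the resting DP gates after them, whereas the enzymes were highest in the cycling gates by the mean of the libraries. Among the 11 gates Foxp3-positive cells with egress genes had the lowest level, 96.9 in cKO and 82.3 in WT.

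The first comparison between gates asked how the genes stood in dividing cells that carry Cd8 relative to resting DP cells. The resting DP gate also required Rag1 or Rag2, genes of receptor rearrangement, and the cycling gate did not. Stage and division therefore cannot be told apart in this comparison. All 5 enzymes were higher in the cycling cells in both libraries. Hmgcs1 had 57.9 CPM in cycling Cd8-positive cells and 19.6 in resting DP cells of the cKO library, a ratio of 2.96 (2.48 to 3.56). In the WT library it had 64.0 and 21.4 in the same order, a ratio of 2.99 (2.47 to 3.65). Cyp51 had the widest gap, with 40.4 in cycling and 8.56 in resting cells in cKO and 46.5 in cycling and 6.41 in resting cells in WT. Its ratios were 4.72 (3.63 to 6.23) in cKO and 7.26 (5.18 to 10.5) in WT. Idi1 had a ratio of 3.02 in cKO and 3.59 in WT, Sqle 3.59 in cKO and 4.28 in WT, and Fdft1 2.69 in cKO and 2.74 in WT. Scd2 went the other way, at 0.732 (0.682 to 0.785) in cKO and 0.651 (0.601 to 0.705) in WT, and the interval of Insig1 included 1 in both libraries, at 0.878 (0.746 to 1.04) in cKO and 1.02 (0.856 to 1.22) in WT.

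A gene was called higher or lower when its ratio, with 5 CPM added to both sides, passed 1.5-fold. By that rule 5 of the 8 genes were higher in both libraries and 0 were lower in both, and among all 10747 genes with at least 20 UMIs in the comparison 14.8% were higher in both and 34.3% were lower in both. The median log2 ratio of the 8 genes was 1.21 in cKO and 1.25 in WT, against -0.33 in both libraries over all genes tested. The summed level of the 5 enzymes was 3.21 times as high in cKO (2.95 to 3.51) and 3.70 times in WT (3.35 to 4.09). The depth of the cells differed alongside: cycling Cd8-positive cells had a median of 22131 UMIs in cKO and 28212 in WT, and resting DP cells 2274 in cKO and 2496 in WT. Per cell, Hmgcs1 gave 134 UMIs per 100 cycling cells and 5.11 per 100 resting DP cells in cKO, and 180 per 100 cycling and 6.09 per 100 resting cells in WT. With each cell thinned to 2000 UMIs and shallower cells left out, the enzyme ratio was 3.16 in cKO and 4.25 in WT.

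Among DN cells the difference between dividing and resting cells was smaller. Over DN3 cells alone, the enzyme sum in S phase was 1.37 times as high in cKO (1.199 to 1.56) and 1.25 times in WT (1.15 to 1.36), and the sum of all 8 genes was 0.846 in cKO and 0.897 in WT. In G2/M over DN3 the 8 genes gave 0.760 in cKO and 0.825 in WT. Resting DN cells, which add the more numerous transitional DN cells, gave narrower intervals. The enzymes summed to 291 CPM in S-phase cells without Cd8 and 201 in resting DN cells of the cKO library, a ratio of 1.45 (1.36 to 1.55), and to 294 and 240 in the WT library, a ratio of 1.22 (1.16 to 1.29). None of the 8 genes passed 1.5-fold in both libraries, against 9.2% of all genes higher and 10.9% lower. Sqle reached 1.59 (1.34 to 1.89) in cKO and 1.18 (1.03 to 1.36) in WT, and Cyp51 1.36 (1.16 to 1.61) in cKO and 1.45 (1.26 to 1.67) in WT. Scd2 was lower in S phase, at 0.607 (0.566 to 0.651) in cKO and 0.661 (0.620 to 0.704) in WT, and Srebf2 too, at 0.733 (0.660 to 0.815) in cKO and 0.739 (0.676 to 0.809) in WT. Between G2/M and S phase the enzyme sum was 0.838 in cKO and 0.916 in WT, with no member past 1.5-fold in both libraries and 2.53% of all genes higher and 0.691% lower in both.

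Resting DP and resting DN cells both lay below the thresholds of the cycle lists, so their comparison is between stages. Of the cycle genes that no gate used, Kif11 stood at 3.40 CPM in cKO and 4.21 in WT resting DP cells, and at 3.29 in cKO and 2.62 in WT resting DN cells. Lig1, a DNA ligase of replication, stood at 8.83 in cKO and 8.24 in WT resting DP cells, and at 12.5 in cKO and 8.47 in WT resting DN cells, against 172 in cKO and 173 in WT S-phase cells. How many cycling cells these gates still held was not tested. Here the 5 enzymes were lower in DP cells in both libraries. Idi1 had 33.8 CPM in resting DP and 78.9 in resting DN cells of the cKO library, a ratio of 0.429 (0.368 to 0.499), and 31.5 and 98.1 in the WT library, a ratio of 0.321 (0.271 to 0.378). The ratio was 0.468 in cKO and 0.438 in WT for Hmgcs1 and 0.464 in cKO and 0.391 in WT for Fdft1. Sqle had 0.350 in cKO and 0.274 in WT, and Cyp51 had 0.267 in cKO and 0.192 in WT, the lowest ratios of the 5 enzymes. Srebf2 stood at 0.716 in cKO and 0.655 in WT and Scd2 at 0.757 in cKO and 0.759 in WT. By the 1.5-fold rule 5 of 8 genes were lower and 0 higher in both libraries, against 11.3% lower and 19.6% higher among 10625 genes. The median log2 ratio of the 8 genes was -0.87 in cKO and -1.03 in WT, against 0.20 in cKO and 0.16 in WT over all genes tested. Resting DP cells again had fewer UMIs, with medians of 2274 in cKO and 2496 in WT, than resting DN cells, with 7781 in cKO and 8142 in WT.

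**Figure D3:**
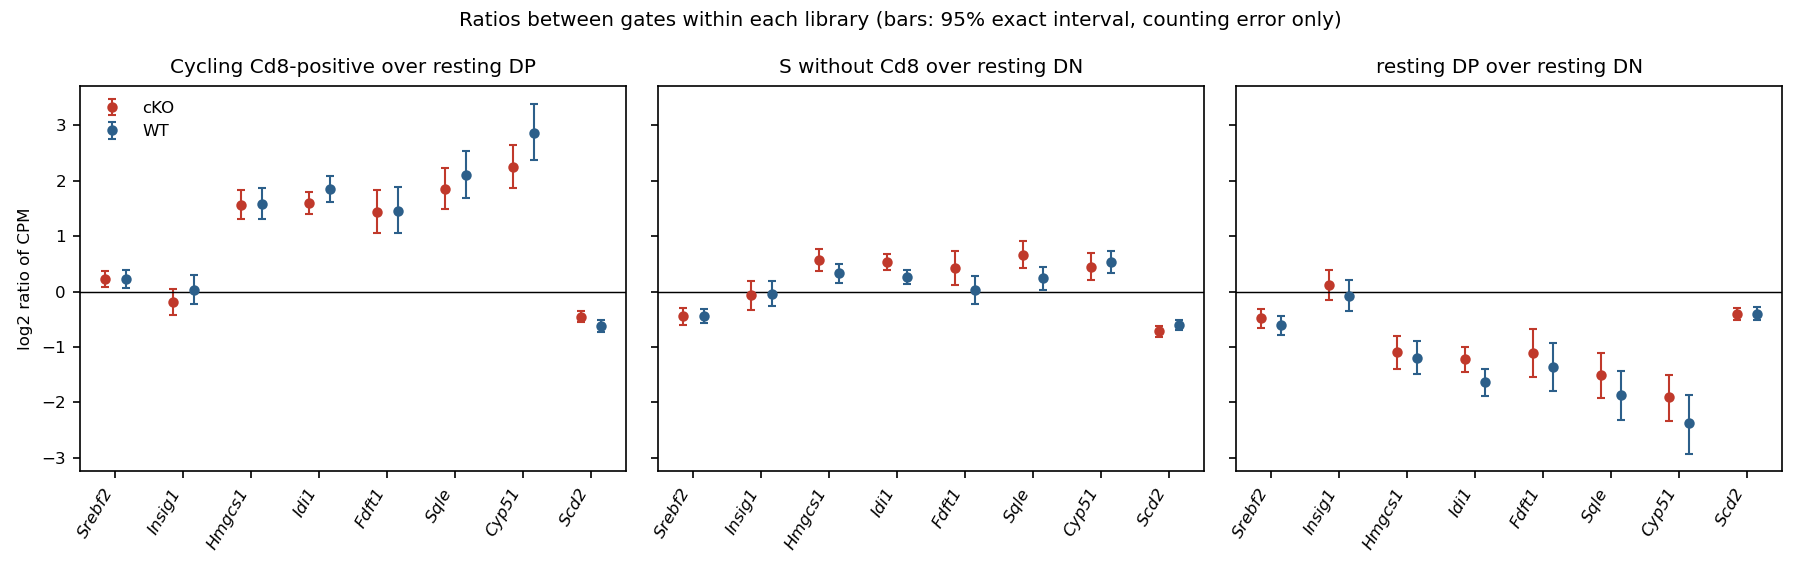
Ratios between gates within each library on a log2 scale, cKO left of WT, with 95% intervals of the counts. The 5 enzymes lie above 0 in the cycling against resting DP panel and below 0 in the resting DP against resting DN panel, while Insig1 stays near 0 in all 3 panels.

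The other genes of the pathway were read from 6 lists in the same comparison of resting DP over resting DN. Of 16 further cholesterol synthesis genes, 4 were lower in both libraries (Fdps, Hsd17b7, Lss and Mvd) and 2 higher (Lbr and Pmvk). Among all genes 11.3% were lower and 19.6% higher in both. Fdps makes farnesyl diphosphate and had 59.6 CPM in DP and 113 in DN cells in cKO and 53.8 in DP and 126 in DN cells in WT. Lbr, a sterol reductase that is also the lamin B receptor of the nuclear membrane, had 257 in DP and 130 in DN cells in cKO and 252 in DP and 118 in DN cells in WT. The median log2 ratio of the list was -0.38 in cKO and -0.51 in WT.

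Genes of sterol uptake and of fatty acid synthesis also differed between the stages. Mylip, a ubiquitin ligase and a target of the sterol receptor LXR, had 62.7 CPM in DP and 15.7 in DN cells in cKO, and 56.7 in DP and 17.5 in DN cells in WT. Of 9 fatty acid genes with enough UMIs, 6 were lower in both libraries (Acaca, Elovl5, Elovl6, Fads1, Fads2 and Fasn) and 1 higher (Acss2). Over all genes 11.3% were lower and 19.6% higher. Fads2, a desaturase of polyunsaturated fatty acids, had 4.89 in DP and 59.0 in DN cells in cKO and 3.84 in DP and 74.9 in DN cells in WT.

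Genes of sterol export ran against the enzymes. Of 5 genes with enough UMIs in the list of efflux, LXR and esterification, 4 were higher in resting DP than in resting DN cells in both libraries (Abca1, Abcg1, Apoe and Soat1) and none lower. The shares over all genes were 19.6% higher and 11.3% lower. Abca1, which moves cholesterol out of the cell and is an LXR target, had 31.2 CPM in DP and 3.29 in DN cells in cKO and 18.5 in DP and 2.62 in DN cells in WT. Soat1, which esterifies cholesterol for storage, had 148 in DP and 76.9 in DN cells in cKO and 150 in DP and 70.02 in DN cells in WT. In cycling Cd8-positive over resting DP cells, 5 of 5 of these genes were lower in both libraries, Nr1h2 among them, against 34.3% of all genes. In that comparison 2 of the 16 further cholesterol synthesis genes were higher in both libraries (Acat2 and Fdps) and 0 lower, a share below the 14.8% of all genes. Their median log2 ratio was 0.25 in cKO and 0.37 in WT. Of 6 isoprenoid genes 1 was higher in resting DP than in resting DN cells (Pggt1b), a share below the 19.6% of all genes. Insig2, the second INSIG, was also higher there and had 27.7 in DP and 14.03 in DN cells in cKO and 28.9 in DP and 11.7 in DN cells in WT.

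**Figure D4:**
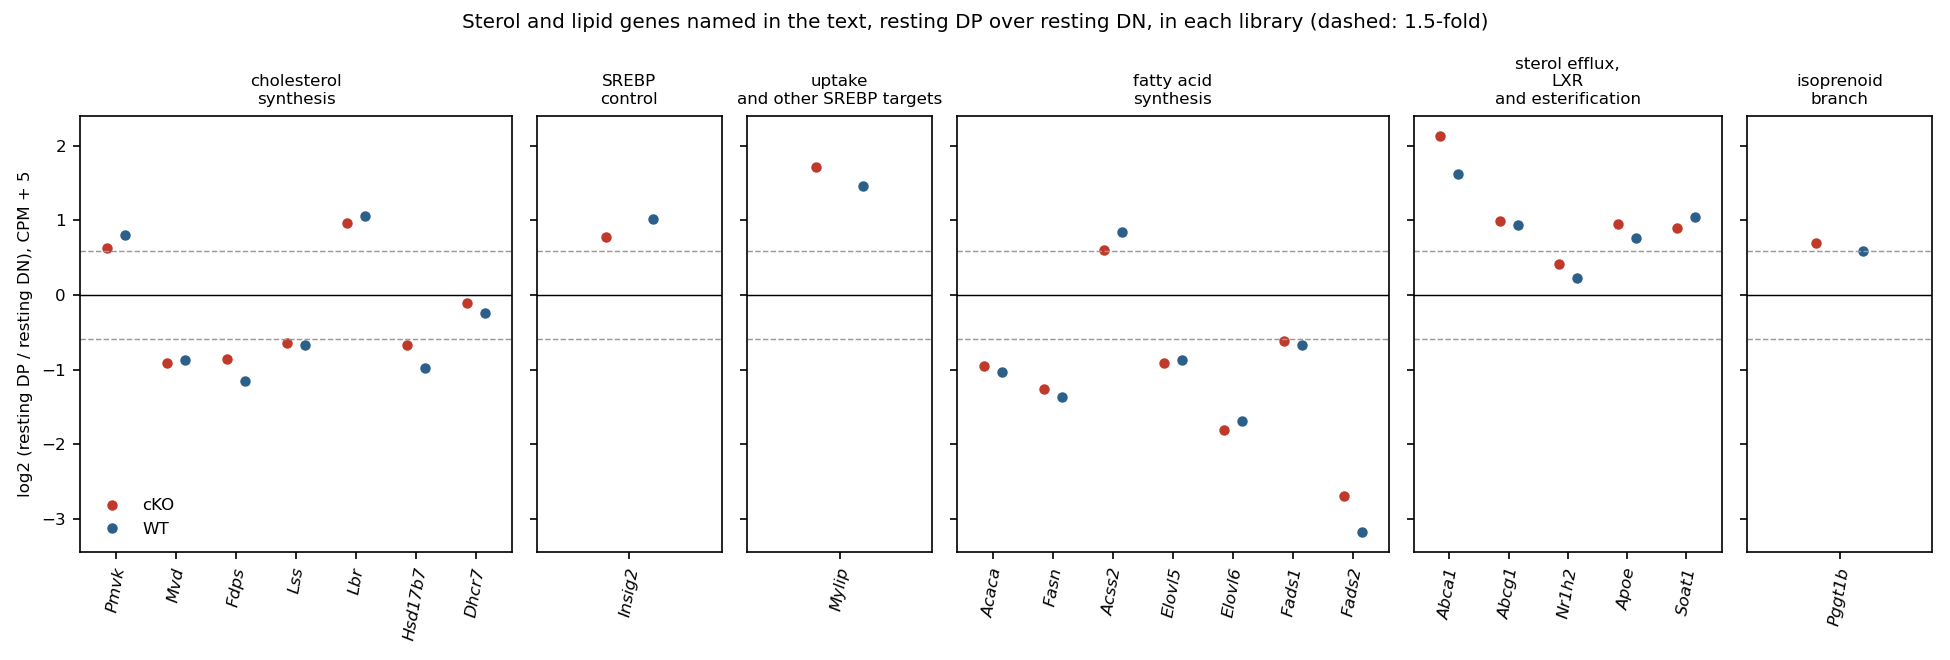
Log2 ratio of resting DP over resting DN cells, with 5 CPM added to both sides, for the further sterol and lipid genes named in the text, most of them named because they passed 1.5-fold, grouped by list, cKO left of WT; dashed lines mark 1.5-fold. Fads2 lies lowest and Abca1 highest of the plotted genes in cKO and WT alike.

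The second question was whether the 8 genes differed between cKO and WT cells of the same gate. In the larger gates their summed level did not move far: the cKO over WT ratio was 1.04 (0.955 to 1.14) in DN3 cells, 0.983 (0.948 to 1.02) in S phase, 0.960 (0.931 to 0.990) in G2/M, 0.990 (0.959 to 1.02) in cycling Cd8-positive cells, 1.07 (1.005 to 1.13) in resting DP cells, 1.14 (0.998 to 1.30) in mature conventional cells and 1.11 (0.993 to 1.24) in Foxp3-positive cells. In agonist-signalled cells, 44 in cKO and 52 in WT, it was 0.689 (0.504 to 0.935). In Foxp3-positive cells without egress genes, 27 in cKO and 61 in WT, it was 1.51 (1.21 to 1.90), and the enzyme sum alone gave 1.99 (1.39 to 2.85). Of these cells 8 in cKO and 11 in WT were cycling. In some gates the enzymes and Scd2 leaned opposite ways. The enzyme sum was 198 CPM in cKO and 242 in WT transitional DN cells, a ratio of 0.819 (0.760 to 0.883), and 260 in cKO and 291 in WT cycling Cd8-positive cells, a ratio of 0.894 (0.857 to 0.934). In G2/M cells it was 0.905 (0.867 to 0.944), in S phase 0.989 (0.941 to 1.04) and in resting DP cells 1.03 (0.907 to 1.17). Variation between libraries of 1 genotype was not measured, so none of these ratios can be told apart from a difference between libraries.

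Scd2 was higher in cKO in 11 of the 11 gates with at least 50 cells in both libraries, and in the smaller agonist-signalled gate it was lower, at 0.733 (0.409 to 1.28). Its ratio ran from 1.02 (0.946 to 1.09) in S phase to 1.40 (0.908 to 2.21) in post-selection cells, and in 6 of the gates the interval lay above 1. In cycling Cd8-positive cells it had 137 CPM in cKO and 110 in WT, a ratio of 1.24 (1.16 to 1.32), and in mature conventional cells 156 and 122, a ratio of 1.28 (1.05 to 1.56). None of these passed 1.5-fold. The gates share their libraries and are not replicates, so the count over gates describes these libraries only. For Srebf2 the ratio stayed between 0.840 and 1.28 over the 11 gates, with the interval below 1 in transitional DN cells alone.

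**Figure D5:**
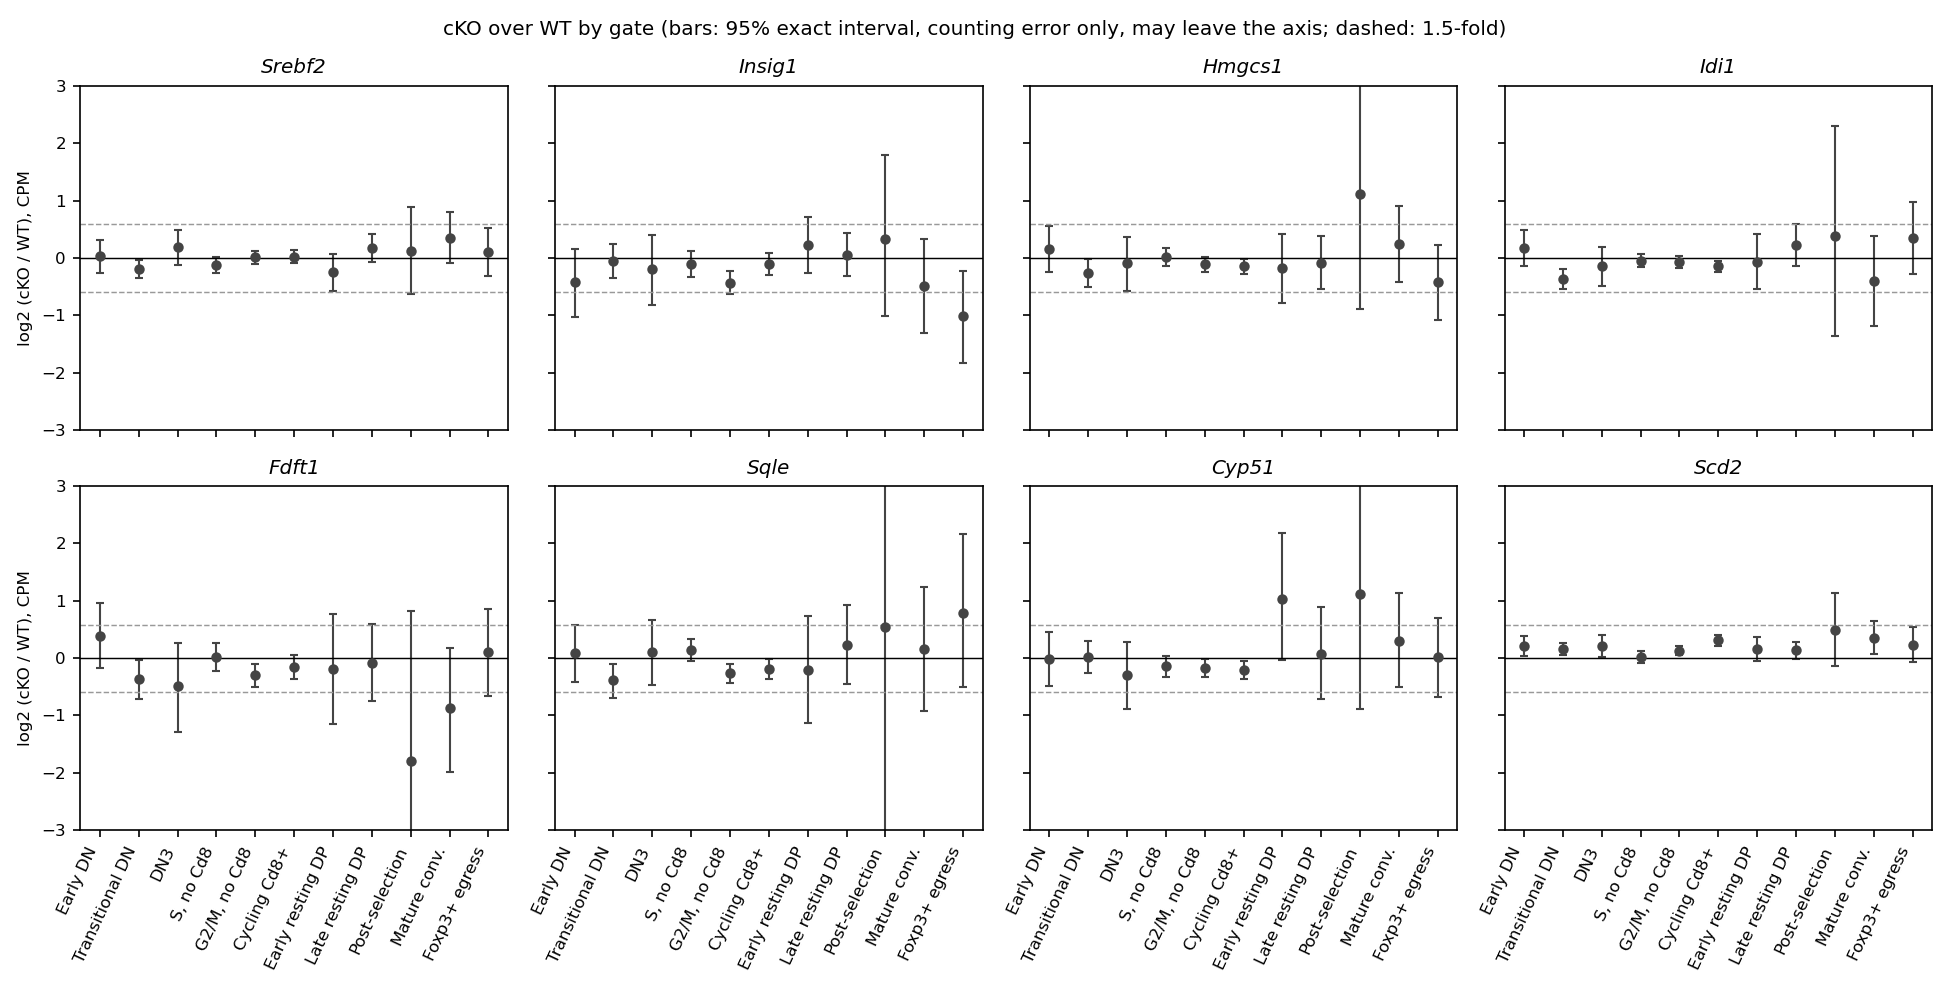
Ratio of cKO over WT on a log2 scale for the 8 genes in 11 gates, with 95% exact intervals of the counts; dashed lines mark 1.5-fold. Scd2 lies above 0 in all 11 gates, and Insig1 in Foxp3-positive cells with egress genes lies below the lower dashed line.

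By the 1.5-fold rule few members differed. Over the 11 gates, Insig1, Fdft1 and Cyp51 passed it in 1 gate each and the other 5 genes in none of the gates where they had enough UMIs. In post-selection cells Srebf2, Insig1 and Scd2 alone had 20 UMIs or more over both libraries, and the 5 enzymes could not be called there. Insig1 was lower in Foxp3-positive cells with egress genes, with 21 UMIs (11.00 CPM) in cKO and 44 UMIs (22.2 CPM) in WT, a ratio of 0.495 (0.280 to 0.850), and 4.32% of genes were lower and 3.5% higher in that gate. Cyp51 was higher in early resting DP cells on 27 UMIs in cKO and 11 in WT, a ratio of 2.04 (0.978 to 4.55), in a gate with 2.53% of genes higher. Fdft1 was lower in mature conventional cells on 13 UMIs in cKO and 22 in WT, a ratio of 0.547 (0.253 to 1.13), in a gate with 3.1% of genes lower. The intervals of the last 2 genes include 1. In agonist-signalled cells Srebf2 was lower on 15 UMIs in cKO and 37 in WT, a ratio of 0.538 (0.274 to 1.004), in a gate with 10.8% of genes lower and 8.55% higher.

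The share of all genes past 1.5-fold set the scale for these counts. In transitional DN cells 0.43% of genes were higher and 0.602% lower in cKO, in S phase 0.128% higher and 0.44% lower, in G2/M 0.383% higher and 0.214% lower, and in cycling Cd8-positive cells 0.201% higher and 0.219% lower. The smaller or shallower gates had larger shares: 1.04% higher and 2.72% lower in early DN, 2.2% and 4.33% in DN3, 2.53% and 1.84% in early resting DP, 0.815% and 0.533% in late resting DP, 9.54% and 7.46% in post-selection, and 3.86% and 3.1% in mature conventional cells. In the joined gates 0 of 8 members were called in resting DP cells, with 0.52% of genes higher and 0.397% lower, and 0 of 8 in resting DN cells, with 0.371% higher and 0.501% lower.

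In all Foxp3-positive cells, 324 in cKO and 320 in WT, Idi1 was higher and Insig1 lower, while 2.5% of genes were higher and 3.71% lower. Idi1 had 79 UMIs (35.2 CPM) in cKO and 56 UMIs (21.7 CPM) in WT, a ratio of 1.62 (1.14 to 2.33), and the enzyme sum had a ratio of 1.19 (0.988 to 1.43). The libraries differed in how many of these cells were cycling, 28 cells (8.64%) in cKO and 40 cells (12.5%) in WT. Among the Foxp3-positive cells that were not cycling, Idi1 had 29 UMIs in 296 cKO cells and 13 in 280 WT cells, a ratio of 2.29 (1.15 to 4.80), and the enzyme sum had a ratio of 1.36 (1.03 to 1.795). Insig1 among those cells had 22 UMIs in cKO and 33 in WT, a ratio of 0.684 (0.380 to 1.21). In the gate with egress genes alone, 277 cKO and 230 WT cells were not cycling. Their Idi1 ratio was 1.77 (0.850 to 3.88) and their enzyme ratio 1.23 (0.902 to 1.67), and both intervals include 1. The small gate of Foxp3-positive cells without egress genes, with 27 cells in cKO and 61 in WT, gave 30 of the 79 cKO and 16 of the 56 WT UMIs of Idi1. The Idi1 ratio was 3.35 (1.77 to 6.58) in that gate and 1.27 (0.820 to 1.98) in the larger gate with egress genes. In the gate without egress genes the cycling share ran the other way, 8 cells (29.6%) in cKO and 11 cells (18.0%) in WT. Those cycling cells held 25 of its 30 Idi1 UMIs in cKO and 15 of 16 in WT. They held 47 of its 69 enzyme UMIs in cKO and 42 of 62 in WT. In these cycling cells the enzyme sum was 212 CPM in cKO and 163 in WT. Its cells not cycling, 19 in cKO and 50 in WT, held 22 enzyme UMIs in cKO and 20 in WT. Their enzyme ratio was 3.27 (1.70 to 6.31), and Idi1 had 5 UMIs in cKO and 1 in WT among them.

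Of 15 further cholesterol synthesis genes with enough UMIs in Foxp3-positive cells, 3 were higher in cKO (Dhcr7, Fdps and Mvd) and none lower. Among all genes of these cells 2.5% were higher and 3.71% lower. Dhcr7, the last reductase before cholesterol, had 31.2 CPM in cKO and 14.3 in WT, a ratio of 2.18 (1.44 to 3.33). Fdps had 71.7 in cKO and 41.8 in WT, a ratio of 1.71 that was 1.37 (0.948 to 1.98) among the cells not cycling and 1.19 with the stricter cell filter. Mvd, which decarboxylates mevalonate diphosphate, had 19.1 in cKO and 9.68 in WT, a ratio of 1.98 that was 1.14 in thinned cells. Outside these cells the lists gave 2 calls in the joined gates: Abca1 was higher in resting DP cells, with 31.2 in cKO and 18.5 in WT (ratio 1.69, 1.33 to 2.16), and Apoe lower in resting DN cells, with 15.3 in cKO and 27.3 in WT (ratio 0.560, 0.444 to 0.703).

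The 8 genes were set against each other over 22 points, the 11 gates in each library, as a description, since points share libraries and depth. The 5 enzymes had Pearson correlations of 0.754 to 0.965 with one another. Scd2 had correlations of -0.02 to 0.39 with the enzymes and 0.681 with Srebf2. Over the same points, and among 8063 genes with at least 20 CPM in some point, the genes nearest to the mean of the 8 were Tmed5 (r = 0.979), Scarb1 (0.960), Gfra1 (0.959), Pdxk (0.945) and Ccdc18 (0.943), followed by Spats2, Timm9, Fads2, Slc35b2 and Dars (0.922 to 0.941). Scarb1 is the receptor for HDL, and Fads2 is also in the fatty acid list. Nearest to the mean of the 5 enzymes alone were Mrpl23 (0.974), Wdr77 (0.974), Phgdh (0.972), Mrpl36 (0.965) and Bola1 (0.961), and Slc35b2 was the 1 gene among the nearest 10 of both rankings.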

How the data were processed

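The deposited matrices are raw UMI counts, from Cell Ranger 6.1.1 per the file headers; CASAVA 1.8 and Seurat 4.0.3 are also named in the submitters' processing notes. The build behind these counts is not given in the sources, so promoter coordinates are those of the RefSeq table. A barcode was kept if it held 500 or more genes, 1000 or more UMIs and no more than 10% mitochondrial UMIs. Doublets were scored per library with scrublet in scanpy 1.11.5 at an expected rate of 0.06. Its automatic threshold called 1 barcode in cKO, so the WT threshold of 0.290 served for both and removed 129 cKO and 148 WT barcodes. Kept cells held 72923208 UMIs in cKO and 85047217 in WT.

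Gates were set on raw UMIs of marker genes, the first match being taken; cycling cells held 10 or more G2/M-list or 15 or more S-list UMIs per 10000. UMIs were summed per gate and library in Python 3.11.15 (numpy 2.4.6, pandas 2.3.3, scipy 1.17.1; figures with matplotlib 3.10.9). Ratios have exact binomial and levels exact Poisson intervals. The 1.5-fold rule needed 20 UMIs in the comparison. The ratio, its interval and the 1.5-fold rule were tested on simulated Poisson counts, with changes placed in genes with many UMIs only. Filters, doublet calls, gates and changes in genes with few UMIs were not part of that test. No test between genotypes was possible with single libraries. The members, the 6 lists of 55 other genes and the gates were chosen with earlier results of these data known. Named are the 8 members, genes of the lists and the 10 genes nearest in pattern to the members; which list genes are given with values was chosen after their values were seen. Alternatives changed the cell filter, doublets, gates, scaling, pseudocount and minimum count. Some genes of the lists are not reported here.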

Additional observations from a re-analysis of the deposited data

Results flagged for a closer look

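Idi1 differed in direction between gates: its cKO over WT ratio was 1.62 in Foxp3-positive cells, against 0.779 in transitional DN cells, 0.804 in resting DN cells and 0.904 in cycling Cd8-positive cells, and the counting interval lay on 1 side of 1 in each. The difference between these ratios was not tested, since each genotype had 1 library. Foxp3-positive cells held 79 UMIs of Idi1 in cKO and 56 in WT, so this ratio rests on far fewer counts than the 452 in cKO and 714 in WT of transitional DN cells. The share of Foxp3-positive cells in cycle was 8.64% in cKO and 12.5% in WT, and the Idi1 ratio among those not cycling was 2.29. Among cells not cycling in the gate with egress genes alone it was 1.77 (0.850 to 3.88), an interval that includes 1. In the gate without egress genes the cycling share was 29.6% in cKO and 18.0% in WT, and its cells not cycling held 5 Idi1 UMIs in cKO and 1 in WT. With gates set on thinned cells the Foxp3-positive ratio was 0.959.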

How the results depend on the processing

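The summed ratios, the counts of members, the resting DP over resting DN ratio of each member, the Scd2 ratios and a few named genes between genotypes were recomputed under stricter and looser cell filters and gate thresholds, with doublets kept, with gates set on cells thinned to 2000 UMIs, with summed thinned cells, with means over cells, with median-ratio scaling, with a denominator free of mitochondrial, ribosomal and TCR genes, and, added after the data had been seen, without the B and myeloid gates and with DN3 and transitional DN cells joined as the resting gate. Gates on thinned cells left 1 cKO and 11 WT cells in DN3, so DN3 values under that setting rest on few cells. No paired analysis was possible because each genotype had 1 library and the labels hold no replicate numbers; for the same reason no library could be left out. A cause of the changes below was not tested unless the setting itself shows it.

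The enzymes stayed higher in cycling Cd8-positive than in resting DP cells, and lower in resting DP than in resting DN cells, under every setting run. For the first ratio in cKO (3.21), gates on thinned cells gave 2.503, stricter gates 2.80, means over cells 2.84, the reduced denominator 3.60 and median-ratio scaling 4.63. In WT (3.70), stricter gates gave 3.33, the reduced denominator 4.15, summed thinned cells 4.25 and median-ratio scaling 5.42. For all 8 genes in cKO (1.37), means over cells gave 1.27, gates on thinned cells 1.30, the reduced denominator 1.53 and median-ratio scaling 1.97. In WT (1.47), looser gates gave 1.35, the reduced denominator 1.66 and median-ratio scaling 2.16. For resting DP over resting DN, the enzyme ratio in cKO (0.404) was 0.455 with the stricter filter, 0.349 with means over cells, 0.332 with summed thinned cells, 0.335 with median-ratio scaling and 0.332 with the reduced denominator. In WT (0.328) it was 0.365 with stricter gates, 0.293 with means over cells, 0.285 with summed thinned cells, and 0.274 both with median-ratio scaling and with the reduced denominator.

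Ratios against DN3 alone were less stable. In cKO, S phase over DN3 for 8 genes (0.846) was 0.971 with the stricter filter, 0.587 with gates on thinned cells, 0.769 with looser gates, 0.952 with median-ratio scaling and 0.940 against the joined resting gate. G2/M over DN3 (0.760) was 0.896, 0.556, 0.682, 0.866 and 0.845 under these settings in the same order, and 0.693 with the reduced denominator. In WT, S phase over DN3 for 8 genes (0.897) was 0.802 with gates on thinned cells and 0.949 with summed thinned cells, and it turned to 1.02 with median-ratio scaling. G2/M over DN3 (0.825) was 0.892 with the stricter filter, 0.690 with gates on thinned cells, 0.758 with stricter and 0.877 with looser gates, 0.970 with median-ratio scaling and 0.763 with the reduced denominator. The enzymes turned below 1 with gates on thinned cells, where the resting cells were 1 in cKO and 11 in WT: 0.368 for S phase and 0.354 for G2/M in cKO, and 0.798 and 0.694 in WT. The WT enzyme ratio otherwise became 1.42 for S phase with median-ratio scaling, and for G2/M (1.14) 1.01 with stricter gates, 1.25 with looser gates, 1.26 with summed thinned cells and 1.34 with median-ratio scaling.

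Between genotypes, the 8-gene sum in G2/M cells turned from below to above 1 with gates on thinned cells (1.01) and stricter gates (1.004), and was 0.916 with looser gates. In DN3 cells it was 1.25 with gates on thinned cells and 1.18 with looser gates, in S phase 0.917 with gates on thinned cells, in mature conventional cells 1.45 with gates on thinned cells, and in Foxp3-positive cells 1.25 with stricter gates. In cycling Cd8-positive cells it was 0.947 with gates on thinned cells, 0.953 with stricter gates, 0.927 with means over cells and 0.951 with summed thinned cells. Scd2 went below 1 in DN3 cells with the stricter filter (0.933) and with gates on thinned cells (0, from 1 cKO cell), and in transitional DN cells with looser gates (0.978). Idi1 in Foxp3-positive cells went to 0.959 with gates on thinned cells, with 205 cells in cKO and 188 in WT, so its direction depends on that setting. The enzyme sum in Foxp3-positive cells (1.19) ranged from 0.891 to 1.36 and was below 1 in 2 of 11 alternatives. In the same cells the Fdps ratio (1.71) ranged from 1.19 to 1.96 and that of Mvd (1.98) from 1.14 to 2.32, so both calls depend on the setting, and that of Dhcr7 (2.18) from 1.92 to 3.59.

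The count of members past 1.5-fold between genotypes was small throughout. In DN3 cells (0) it was 2 with the stricter filter, 2 with looser gates and 1 with summed thinned cells, and in cycling Cd8-positive cells (0) 1 with summed thinned cells. In mature conventional cells (1) it was 0 with either cell filter, means over cells, summed thinned cells or a minimum of 50 UMIs, and 2 with looser gates. In agonist-signalled cells (1) it was 0 with the stricter filter and gates on thinned cells, 2 with means over cells and 3 with a minimum of 1 UMI. In Foxp3-positive cells (2) it was 0 with gates on thinned cells and summed thinned cells, and 1 with either cell filter, doublets kept, stricter gates, means over cells, median-ratio scaling or no B or myeloid gates.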
